A study of Mus musculus with 2 samples.

Results

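Ribosomes are assembled in the nucleolus, and most of the 40 genes described here encode factors of that assembly line. These are proteins that transcribe, modify, cut and fold ribosomal RNA, carry its parts or export it. Srm, a polyamine enzyme, and Ipo4, an importin, are neighbours of the pathway. The 40 genes were listed by gene symbol, with earlier results of these data known. All 40 of them were found among the 32285 genes counted in both deposited matrices. Their RNA was followed in LSK cells, mouse bone marrow cells that lack lineage markers and carry Sca-1 and c-Kit; among them are the haematopoietic stem cells (HSCs) and the multipotent progenitors (MPPs) that HSCs give rise to. Summed over all 40 genes, their share of the RNA over the cells of a gate was lower in cells with the surface tags of HSCs than in each of the MPP gates. When the cells were split by cell-cycle scores instead, that share was highest in cells led by S-phase genes and lowest in cells with neither score. Between the mice given an iron chelator and their controls the sum over all LSK cells differed by less than counting error.

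The chelator group received deferoxamine at 50 mg/kg and the control group the vehicle HBSS, each daily for 7 days in every 4 weeks, from about 6 months of age and over 13 months. The comparison asks what lasting removal of iron does to blood stem cells as they age. Single-cell RNA and surface-protein tags (CITE-seq) were read from 1 pool of sorted LSK cells per treatment, the pools being told apart by a hashtag antibody and loaded together as 1 RNA library and 1 tag library. Strain, sex and the number of mice behind each pool are not stated in the sources used here, and transcripts of Xist and of the Y chromosome show that both pools mixed female and male cells. With 1 pool per treatment there was no replicate: no difference was tested, no p-value exists, and every interval below is a 95% interval for counting error alone.

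A ribosome is made from a long precursor RNA that RNA polymerase I transcribes in the nucleolus. Small nucleolar ribonucleoproteins then guide its chemical modification: box C/D particles methylate riboses and box H/ACA particles turn uridines into pseudouridines. A large processome cuts out the RNA of the small subunit, while the PeBoW complex and many other factors mature the large one, which is exported to the cytoplasm. The output of this pathway limits how fast a cell can grow. Adult HSCs are mostly quiescent, are known for a low rate of protein synthesis, and make more protein as they become progenitors. The transcription factor Myc, which binds the E-box CACGTG, is the best known activator of these genes.

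The E-box was therefore looked for in the promoters of the members, in windows from 250 bases before to 50 bases after each transcription start given by RefSeq (GRCm38.p6). A window was at hand for 34 of the 40 members, and 8 of these 34 held CACGTG, which is its own reverse complement. The following 30-base stretches are shown because they carry this motif, in capitals, on the strand of the gene and from 5′ to 3′.
Ipo4: tgtcggagtctcCACGTGccgatcctcccc
Mybbp1a: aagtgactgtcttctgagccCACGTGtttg
Nop2: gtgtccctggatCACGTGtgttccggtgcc
Pes1: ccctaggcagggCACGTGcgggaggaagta
Tsr1: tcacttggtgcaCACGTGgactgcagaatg
Utp20: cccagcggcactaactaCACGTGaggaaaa
Utp4: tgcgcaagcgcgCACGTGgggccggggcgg
Wdr43: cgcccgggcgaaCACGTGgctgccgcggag
These stretches lie at chr14:55635653-55635682 (minus strand) for Ipo4, chr11:72441347-72441376 (plus) for Mybbp1a, chr6:125131811-125131840 (plus) for Nop2 and chr11:3963965-3963994 (plus) for Pes1. Those of Tsr1, Utp20, Utp4 and Wdr43 lie at chr11:74898092-74898121 (plus), chr10:88826765-88826794 (minus), chr8:106893643-106893672 (plus) and chr17:71616220-71616249 (plus). In 7 of the 8 genes the E-box was downstream of the annotated start, in Nop2 upstream of it. The motif was present in 23.5% of the members with a window, against 11.97% of 9729 genes with at least 200 UMIs in these cells and 8.09% of all 27025 genes with a window. The letters CCGGAAG, a core that ETS factors bind, searched on both strands, were in 13 of the 34 members (38.2%), against 21.0% of the genes with at least 200 UMIs and 9.93% of all genes. Of 94 ribosome biogenesis genes outside the 40 that had a window, 17 held CACGTG (18.1%) and 43 held CCGGAAG (45.7%). Neither motif was thus particular to the members. A match of letters is not a bound site, and no binding was measured here.

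After filtering, 3998 chelator cells and 3969 control cells remained, with medians of 14456 and 13705 UMIs (unique molecules counted) of all genes per cell. No barcode was shared between the pools. The 8 marker genes of LSK and stem cells were all detected, at a summed 1514 counts per 1000000 gene UMIs (CPM) in the chelator pool and 1536 in the control pool. Of the T or NK cell markers nearly all UMIs were of Nkg7, and Cd3e was at 14 and 0 UMIs. Erythroid markers were at 18.2 and 219 CPM, most of the control value coming from 2 haemoglobin-rich cells. Cells with Xist alone and with Y-linked transcripts alone numbered 897 and 2542 in the chelator pool, against 1417 and 1952 in the control pool. The sexes were thus mixed in different proportions, and values within each sex stand beside the comparison of treatments. The Xist class took at least 2 UMIs of Xist, the Y class at least 1 of Y-linked genes. A further 507 chelator and 565 control cells had no sex class. Total gene UMIs per cell averaged 17688 in Xist and 16993 in Y cells of the chelator pool. In the control pool the averages were 17599.5 and 15716, so the classes also differed in depth.

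Cells were assigned to 5 gates by their CD135, CD48 and CD150 tags: MPP4 (CD135 without CD150), MPP3 (CD48 alone), MPP2 (CD48 and CD150), MPP1 (none of the 3 tags) and HSC (CD150 alone). The gates are ranges of tag signal, and 33.0% of chelator and 32.8% of control cells lay close to a threshold. The MPP4 gate held 1293 chelator and 1510 control cells, the MPP3 gate 611 and 502, the small MPP2 gate 100 and 91, the MPP1 gate 562 and 548, and the HSC gate 1310 and 1162. The other 122 and 156 cells carried both CD135 and CD150 and enter only the values over all LSK cells.

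All 40 members passed the floor of 200 UMIs over both pools, from Rrp12 with 919 UMIs in the chelator and 943 in the control pool up to Npm1 with 106925 and 101235. The members together supplied 403864 UMIs in the chelator pool and 384752 in the control pool, which is 101 and 96.9 UMIs per cell, or 0.607% and 0.608% of all gene UMIs. Npm1 alone gave 26.5% and 26.3% of the summed UMIs, and Ncl 10.9% in either pool, so the sum leans on these abundant nucleolar proteins. Processed copies of Npm1 lie elsewhere in the mouse genome, and how reads shared with them were counted is not stated in the sources used here. Counts are of 5′ transcript ends and carry no correction for length, so levels are compared between cells and not between genes.

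In the chelator pool the summed level was 6425 CPM in the MPP4 gate, 6653 in MPP3, 6694 in MPP2 and 5735 in MPP1, against 5392 in the HSC gate. In the control pool it was 6391 CPM in MPP4, 6798 in MPP3, 6801 in MPP2 and 5735 in MPP1, against 5246 in the HSC gate. The HSC gate was lowest in each pool, MPP1 next, and the 3 gates marked by CD48 or CD135 were above both. MPP3 and MPP2 could not be ordered, since their intervals overlapped in each pool (6607 to 6700 and 6588 to 6800 CPM in the chelator pool, 6747 to 6849 and 6690 to 6914 in the control pool). Per cell and without scaling, the MPP2 gate had 154 member UMIs in the chelator and 157 in the control pool, MPP3 131 and 134, MPP4 116 and 107, and MPP1 77.6 and 74.7, against 79.8 and 74.5 in the HSC gate. The cells of the CD48-positive gates also held more UMIs of all genes together, with median totals of 18401 and 18645 in MPP3 and 21883.5 and 20586 in MPP2, against 13304 and 12690 in the HSC gate.

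**Figure D1:**
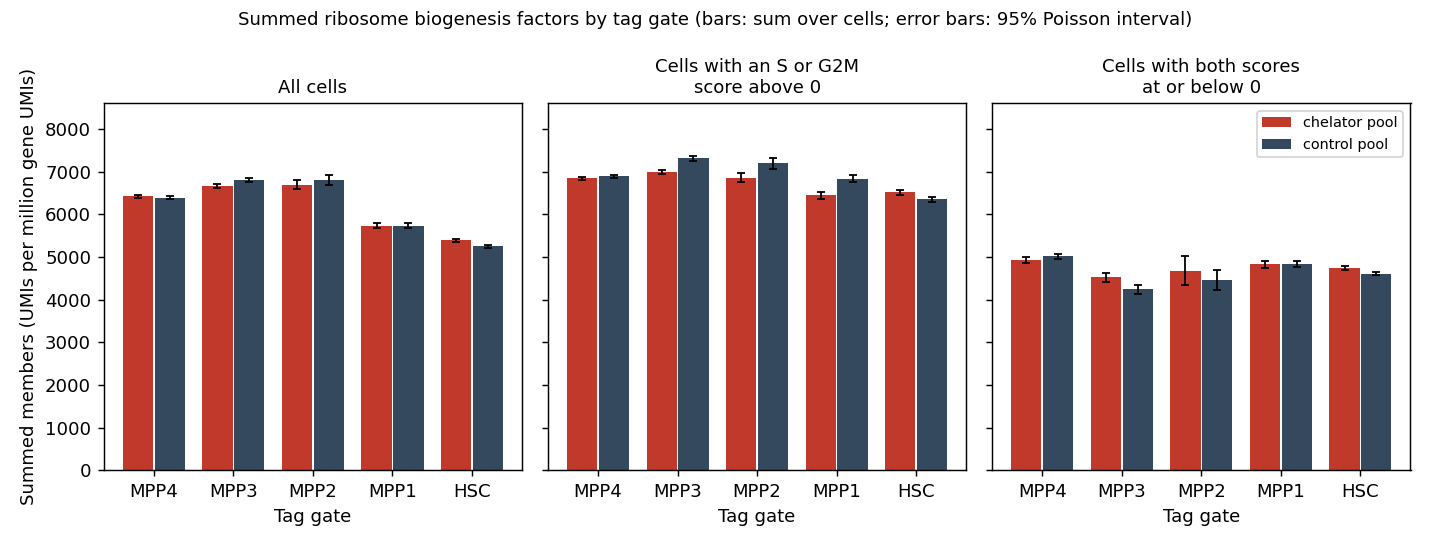
Summed level of the 40 members (CPM, vertical axis) by tag gate in the chelator pool (red) and the control pool (dark blue), for all cells, for cells whose S or G2M score was above 0 and for the remaining cells; error bars are 95% Poisson intervals. Over all cells the HSC gate was lowest in both pools (5392 and 5246 CPM), whereas within either score class the gates lay closer together.

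As a log2 ratio, the sum was higher in MPP4 than in the HSC gate by 0.25 (interval 0.24 to 0.26) in the chelator pool and by 0.29 (0.27 to 0.30) in the control pool. For MPP3 over the HSC gate the ratios were 0.30 (0.29 to 0.32) and 0.37 (0.36 to 0.39), for MPP2 0.31 (0.29 to 0.34) and 0.37 (0.35 to 0.40), and for MPP1 0.089 (0.073 to 0.11) and 0.13 (0.11 to 0.15). Every one of these intervals lay above 0, while the median over all genes with at least 200 UMIs stayed between -0.018 and 0.041 in the same 8 comparisons. Counted by member, 35 of 40 were above 0 in MPP4 over the HSC gate in each pool, against 50% and 51% of all genes. Above 0 were also 35 and 37 members in MPP3 (49.1% and 48.3% of all genes), 37 and 36 in MPP2 (50.7% and 52.3%), and 31 and 34 in MPP1 (57.5% and 54.4%). Past 1.2-fold higher were 16 members in the chelator pool, where 24.2% of all genes were, and 24 in the control pool, where 24.5% were. In MPP3 over the HSC gate 19 and 31 members were past that fold (24.6% and 24.5% of all genes), in MPP2 25 and 26 (25.7% and 27%), and in MPP1 3 and 9 (16.9% and 13.7%). The shift of the members was thus broad in sign and modest in size: the share past 1.2-fold exceeded that of all genes in MPP4, MPP3 and MPP2 in both pools, and in MPP1 in the control pool but not in the chelator pool. Restricting the cells moved the MPP4 result: among cells without a cell-cycle score above 0 it was 0.055 and 0.12, and among cells of 10000 to 15000 gene UMIs, an alternative chosen after seeing the data, it was 0.11 and 0.26.

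The level was lowest in the HSC gate for 30 of the 40 members in the chelator pool and for 33 in the control pool, as it was for 32.7% and 30.6% of all genes with enough UMIs. Across the 4 MPP gates and both pools, 28 members were above 0 in all 8 comparisons, against 24% of all genes, and 0 were past 1.2-fold higher in all 8, where 3.69% of all genes were. Past 1.2-fold higher in none of the 8 were 6 members, Polr1c, Nop16, Rrp1, Ppan, Nop14 and Ipo4, and 54.7% of all genes. Ipo4 was past 1.2-fold lower in MPP3 and MPP2 of the chelator pool (-0.40 and -0.53). The comparisons of 1 pool share its HSC gate, so they are not independent of each other.

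**Figure D2:**
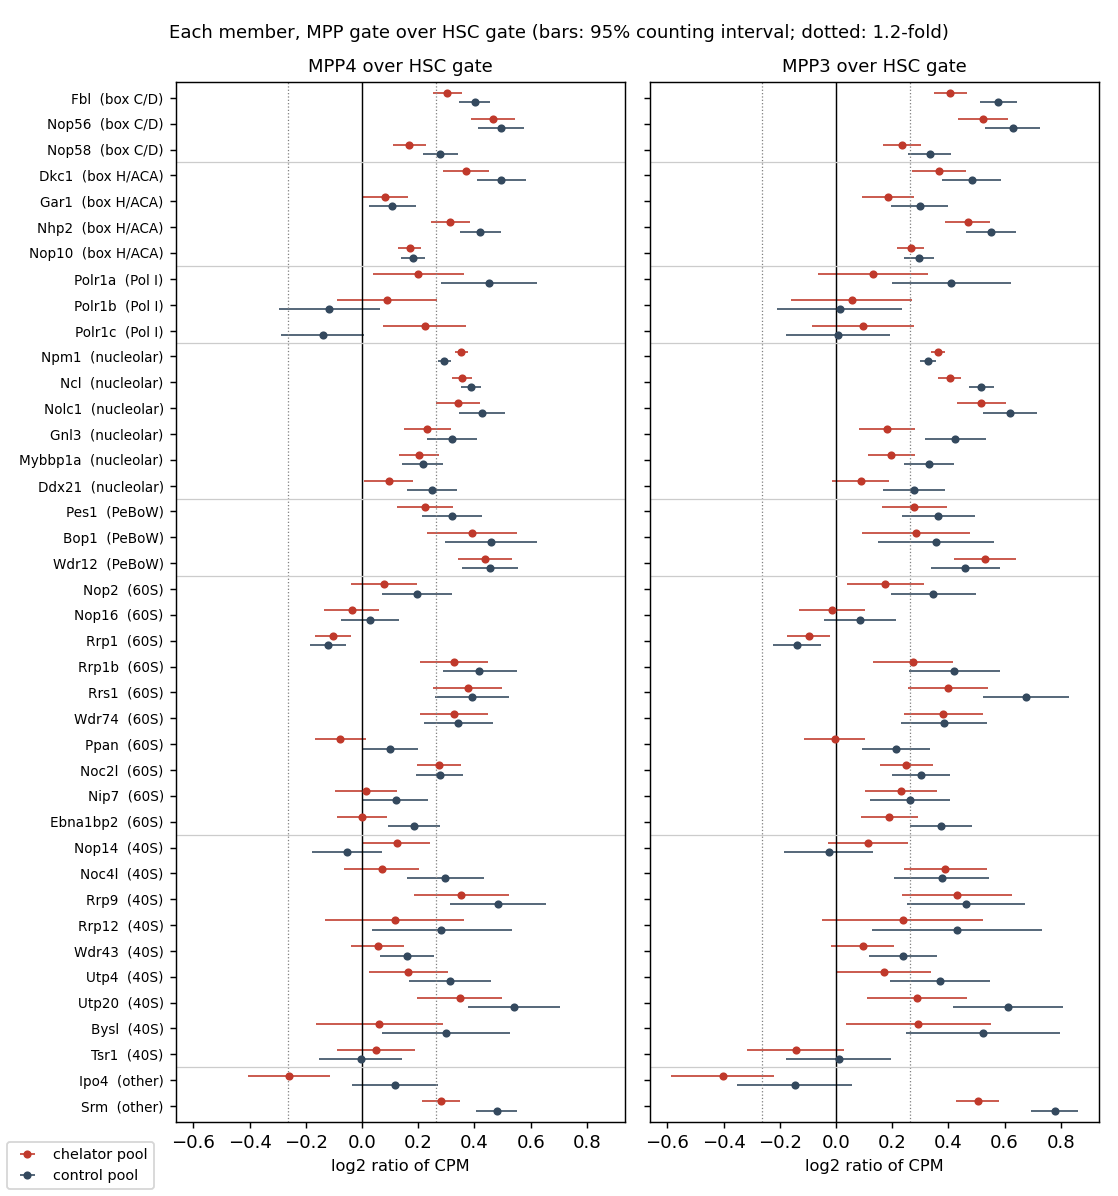
Log2 ratio of CPM for each of the 40 members, grouped by role, in the MPP4 gate (left) and MPP3 gate (right) over the HSC gate, in the chelator pool (red) and the control pool (dark blue); bars are 95% counting intervals and dotted lines mark 1.2-fold. Most points lie right of 0, with Nop56 at 0.47 and 0.49 in MPP4, while Rrp1 lies left of 0 in both pools and both gates.

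Among the box C/D proteins, Fbl, the fibrillarin that methylates ribose, was at 321 CPM in the MPP4 gate of the chelator pool and 318 in that of the control pool, against 260 and 241 in the HSC gates. Nop56, a scaffold of the same particle, was at 154 and 151 CPM in MPP4, against 112 and 107 in the HSC gate. Its log2 ratios of 0.47 (0.39 to 0.54) and 0.49 (0.41 to 0.58) were among the 3 highest in each pool. Both genes, and their partner Nop58, were higher in every MPP gate of both pools. Of the box H/ACA proteins, Dkc1, the pseudouridine synthase, was at 133 and 138 CPM in MPP4, against 103 and 97.8 in the HSC gate, a log2 ratio of 0.37 (0.29 to 0.45) and 0.50 (0.41 to 0.58). Its partners Nhp2, Nop10 and Gar1 were above 0 in all 8 comparisons as well, but Gar1 stayed at 0.082 and 0.11 in MPP4.

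The nucleolar proteins moved with them. Npm1, nucleophosmin, a histone and ribosome chaperone, was at 1760 CPM in the MPP4 gate of the chelator pool and 1710 in that of the control pool, against 1378 and 1396 in the HSC gates. Ncl, nucleolin, was at 721 and 702 CPM in MPP4, against 563 and 536 in the HSC gate. The log2 ratios were 0.35 (0.33 to 0.38) and 0.29 (0.27 to 0.32) for Npm1, and 0.36 (0.32 to 0.39) and 0.39 (0.35 to 0.42) for Ncl. These are the most tightly counted members, and neither gene's MPP4 and HSC gate values overlapped in either pool. Nolc1, which escorts small nucleolar particles, and Gnl3, nucleostemin, were above 0 in all 8 comparisons, and Ddx21, an RNA helicase, likewise; Mybbp1a, at 0.20 and 0.22 in MPP4, was above 0 in 7 of the 8.

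The 3 PeBoW genes, Pes1, Bop1 and Wdr12, whose products work as 1 complex on the large subunit, were all above 0 in all 8 comparisons. Wdr12 had log2 ratios of 0.44 (0.34 to 0.53) and 0.46 (0.36 to 0.56) in MPP4 over the HSC gate. Bop1 was at 35.3 and 37.4 CPM, against 26.9 and 27.3 (0.39 and 0.46). Pes1 was at 84.5 and 84.6 CPM in MPP4, against 72.3 and 67.8 in the HSC gate. The group's median log2 ratio of 0.39 in the chelator pool and 0.46 in the control pool was the highest of the roles with 3 or more genes.

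Factors of the large subunit were divided. Rrp1b was at 61.1 and 56.9 CPM in MPP4, against 48.7 and 42.6 in the HSC gate, and Rrs1 and Wdr74 had similar ratios of 0.38 and 0.33 in the chelator pool and 0.39 and 0.34 in the control pool. Rrp1, the paralogue of Rrp1b, went the other way, with 180 and 181 CPM in MPP4, against 193 and 197 in the HSC gate (-0.10, interval -0.17 to -0.038, and -0.12, -0.19 to -0.056). Ppan was at 89.4 and 87.6 CPM in MPP4, against 94.3 and 81.7 in the HSC gate, so that its ratio differed in sign between the pools (-0.077 and 0.10). The chelator interval of Ppan, -0.17 to 0.014, included 0. Nop16 was near 0 in both pools (-0.037 and 0.027). Noc2l stood at 0.27 and 0.28, whereas Nop2, an rRNA methyltransferase, Nip7 and Ebna1bp2 had intervals that included 0 in the chelator pool (0.076, 0.014 and -0.0016) and lay above 0 in the control pool (0.19, 0.12 and 0.19). The median over the 10 genes of this role was 0.045 in the chelator and 0.19 in the control pool.

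For the small subunit, Utp20, a scaffold protein of the processome, was at 39.2 and 39.3 CPM in MPP4, against 30.8 and 27.0 in the HSC gate; its control ratio of 0.54 (0.38 to 0.71) was the highest of any member in that pool. Rrp9 was at 31.4 and 35.2 CPM, against 24.6 and 25.2. Tsr1, a late factor of the small subunit, did not follow, with 40.7 and 38.0 CPM in MPP4 against 39.3 and 38.1 in the HSC gate, and Nop14 was at 0.12 and -0.055. Utp4, Noc4l, Rrp12, Bysl and Wdr43 were above 0 in both pools, between 0.056 (Wdr43) and 0.16 (Utp4) in the chelator pool and between 0.16 (Wdr43) and 0.31 (Utp4) in the control pool. The intervals of these low-count genes span 0.2 to 0.5 on the log2 scale. A ratio as small as that of Wdr43 in the chelator pool is thus within counting error, and the intervals of Tsr1 included 0 in both pools.

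The genes of RNA polymerase I gave no common picture. Polr1a, its largest subunit, was at 31.6 and 34.8 CPM in MPP4, against 27.5 and 25.4 in the HSC gate (0.20, interval 0.038 to 0.36, and 0.45, 0.28 to 0.62). Polr1b was at 25.2 and 24.7 CPM, against 23.7 and 26.8, and Polr1c, a subunit shared with polymerase III, at 38.4 and 35.3 CPM, against 32.9 and 38.9. Polr1b and Polr1c were thus above 0 in the chelator pool (0.088 and 0.22) and below 0 in the control pool (-0.12 and -0.14). Their control intervals both included 0, at -0.29 to 0.063 for Polr1b and -0.29 to 0.0084 for Polr1c.

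The remaining members are neighbours of the pathway. Srm, spermidine synthase, which makes a polyamine needed by growing cells, was at 215 CPM in the MPP3 gate of the chelator pool and 241 in that of the control pool, against 152 and 140 in the HSC gates. Its control ratio of 0.78 (0.70 to 0.86) was the highest of any member in MPP3 over the HSC gate. Ipo4, an importin that carries ribosomal proteins and histones into the nucleus, was at 30.0 and 31.0 CPM in MPP3, against 39.6 and 34.3 in the HSC gate. Ipo4 was below 0 in 6 of the 8 comparisons, and in the chelator pool its interval in MPP3 was -0.59 to -0.22. In MPP4 of the chelator pool Ipo4 had the lowest ratio of any member (-0.26, interval -0.41 to -0.11).

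Cells of the gates differ in how many express cell-cycle genes, and the share of cells whose S or G2M score was above 0 followed the summed members. That share was 66.3% in the MPP4 gate of the chelator pool and 61.4% in that of the control pool, 80.2% and 76.8% in MPP3, 90.7% and 84.4% in MPP2, and 43.9% and 34.1% in MPP1, against 26.0% and 25.2% in the HSC gate. The scores came from 40 S and 52 G2M genes, none of them a member, in cells thinned to 5000 UMIs; the 297 shallower cells got no score. A score above 0 is a pattern of transcripts, and no cell division was measured.

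Within score classes the differences between gates were smaller than over all cells. Among cells without a score above 0, the sum in MPP4 was 4927 CPM in the chelator and 5012 in the control pool, against 4743 and 4612 in the HSC gate, which left log2 ratios of 0.055 (0.033 to 0.077) and 0.12 (0.100 to 0.14). The median over all genes in those comparisons was 0.046 and 0.052. Members past 1.2-fold higher numbered 3 of the 39 with enough UMIs in the chelator pool (23.9% of all genes) and 11 of 38 in the control pool (25.2%). For MPP3 the ratio among these cells was below 0, with 4527 and 4244 CPM against 4743 and 4612 in the HSC gate, or -0.067 (-0.10 to -0.031) and -0.12 (-0.16 to -0.083), where the median over all genes was -0.026 and -0.13. MPP1 was at 4824 and 4825 CPM, or 0.024 (-0.0011 to 0.050) and 0.065 (0.040 to 0.090) over the HSC gate. The 9 and 14 MPP2 cells of this class were at 4669 and 4451 CPM (-0.023 and -0.051), with intervals that included 0. The order of the gates seen over all cells therefore did not hold in this class.

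Among cells with a score above 0, the sum stayed higher in MPP4 than in the HSC gate, at 6842 and 6890 CPM against 6511 and 6353, or 0.071 (0.056 to 0.087) and 0.12 (0.10 to 0.13). It was also higher in MPP3, at 6991 and 7309 CPM (0.10, interval 0.086 to 0.12, and 0.20, 0.18 to 0.22), and in MPP2, at 6861 and 7192 CPM (0.076, 0.049 to 0.10, and 0.18, 0.15 to 0.21). In MPP1 it was 6444 and 6835 CPM, or -0.015 (-0.037 to 0.0065) and 0.11 (0.082 to 0.13), so that the pools differed in sign. Set against the ratios over all cells, the control pool kept 0.20 of 0.37 in MPP3 and 0.11 of 0.13 in MPP1, and the chelator pool 0.10 of 0.30 in MPP3. Members past 1.2-fold higher in MPP4 numbered 0 in the chelator pool, where 17.7% of all genes were, and 6 in the control pool (15.7%). The gap between the pools in these ratios is larger than their counting error, which leaves out the spread between cells. The cause of the gap was not tested.

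The score classes themselves differed more than the gates. Over all LSK cells the members summed to 6767 CPM in 2005 chelator cells with a score above 0, against 4786 in the 1855 without. In the control pool the values were 6901 CPM in 1868 cells, against 4739 in 1942. The ratios were 1.41-fold and 1.46-fold (log2 0.50, interval 0.49 to 0.51, and 0.54, 0.53 to 0.55). Inside the HSC gate the step was nearly as large, at 6511 and 6353 CPM against 4743 and 4612 (0.46 in each pool), and 31 members in each pool were past 1.2-fold higher there (29.7% and 32.9% of all genes). By member and over all LSK cells, 39 of 40 were above 0 in both pools (45.2% and 46.8% of all genes), and 32 and 34 were past 1.2-fold higher (25.6% and 26.6%). Total UMIs per cell also differ between the classes, so that a cell with a score above 0 held a median of 127 member UMIs in the chelator and 125 in the control pool, against 54 and 52 without; thinned to 5000 UMIs per cell, the medians were 32 in each pool, against 23 and 22. Among cells of 10000 to 15000 gene UMIs the log2 ratio of the classes was 0.28 in the chelator and 0.35 in the control pool.

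Srm was at 217 CPM in chelator cells and 231 in control cells with a score above 0, against 108 and 112 without, a log2 ratio of 1.01 (0.94 to 1.07) and 1.04 (0.98 to 1.10). Nop56 was at 169 and 171 CPM, against 84.9 and 84.1 (0.996 and 1.02), and Nolc1 at 162 and 173, against 86.2 and 88.1 (0.91 and 0.98). These and Nhp2 (0.83 and 0.97) had the highest ratios in both pools. The abundant Npm1, at 1777 and 1781 CPM against 1295 and 1309, had only 0.46 and 0.44, and Ncl 0.66 and 0.70. At the other end, Ipo4 was at 32.3 and 35.0 CPM in cells with a score above 0, against 39.8 and 36.2 without (-0.30 and -0.049), and it was the only member below 0. Rrp1, at 187 and 189 CPM against 183 in each pool, was flat (0.030 and 0.044).

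Split by which score was higher, the members took their largest share of the RNA in cells led by the S score. In 1412 chelator and 1342 control cells led by the S score they summed to 7327 and 7473 CPM, in the 593 and 526 cells led by the G2M score to 5724 and 5810.5, and in cells with neither to 4786 and 4739. On the log2 scale, S cells stood 0.61 and 0.66 above cells with neither, and G2M cells 0.26 and 0.29. Per cell and without scaling, S cells held 146 member UMIs per cell in the chelator and 144 in the control pool and G2M cells 146 and 150.0, against 58.7 and 56.7 in cells with neither, so that the excess of S over G2M cells was not seen per cell. The median totals of all genes were 18941.5 and 18349.5 UMIs in S cells and 24921 and 24714.5 in G2M cells, against 11798 and 11544.5 in cells with neither. Past 1.2-fold higher than cells with neither were 37 and 38 members in S cells (25.5% and 26.5% of all genes) and 14 and 21 in G2M cells (27.1% and 27.8%), and above 0 were 39 and 40 in S cells (44.5% and 45.7% of all genes) and 31 in each pool in G2M cells (47.9% and 49.1%). In S over G2M cells 39 of 40 members were above 0 in each pool (48.4% and 48.3% of all genes), and 31 and 30 were past 1.2-fold (21.1% and 20.7%).

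**Figure D3:**
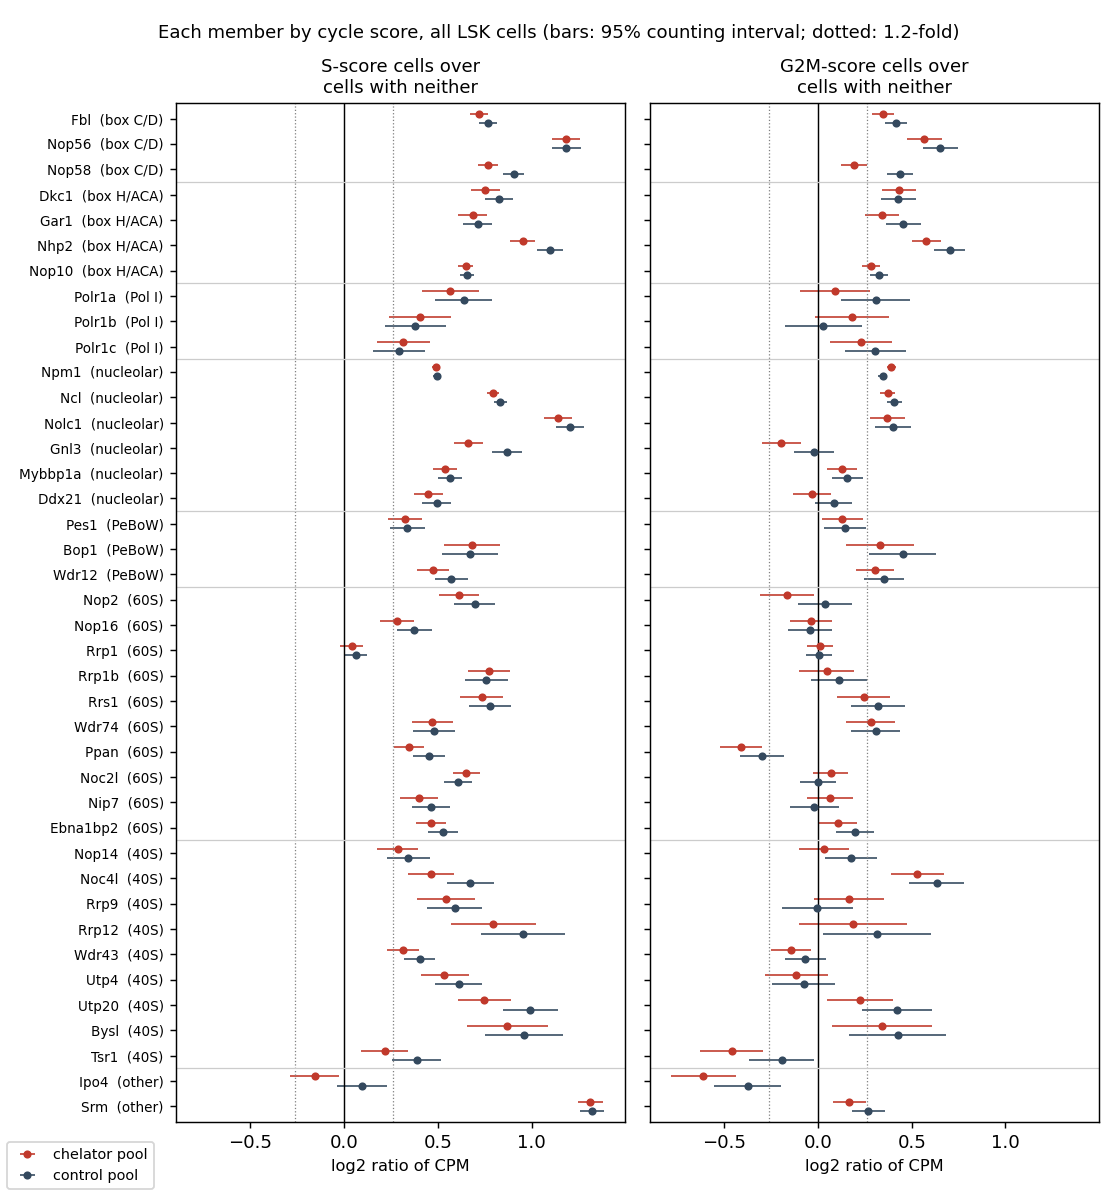
Log2 ratio of CPM for each member in cells led by the S score (left) and by the G2M score (right) over cells with neither, all LSK cells, in the chelator pool (red) and the control pool (dark blue); bars are 95% counting intervals and dotted lines mark 1.2-fold. Srm stands at 1.31 and 1.32 in S cells and at 0.17 and 0.27 in G2M cells, and Ppan, Tsr1 and Ipo4 lie below 0 in G2M cells in both pools.

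Srm showed the steepest difference, with 269 and 281 CPM in S cells and 121 and 135 in G2M cells, against 108 and 112 in cells with neither. Nolc1 stood at 1.14 and 1.204 in S cells but at 0.37 and 0.40 in G2M cells. A group of members was at or below the level of cells with neither when the G2M score led. Ppan was at 65.2 and 64.6 CPM in G2M cells, against 86.6 and 79.6 in cells with neither, although it was at 110 and 109 in S cells. Gnl3, nucleostemin, stood at 0.66 and 0.87 in S cells but at -0.20 and -0.023 in G2M cells, and Tsr1, Ipo4, Wdr43, Utp4 and Nop16 were also below 0 there in both pools.

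Other members held their level in G2M cells. Npm1 was at 1697 and 1662 CPM in G2M cells, against 1821 and 1843 in S cells and 1295 and 1309 in cells with neither, so that S over G2M was just 0.10 (0.080 to 0.12) and 0.15 (0.13 to 0.17). Noc4l, a small-subunit factor, was at 53.9 and 53.7 CPM in G2M cells and 51.4 and 55.2 in S cells, against 37.3 and 34.6 in cells with neither, and its S over G2M interval included 0 in both pools. The same held for Polr1c (0.086 and -0.013) and for Rrp1 (0.029 and 0.058), which was nearly the same in all 3 classes.

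Surface tags were read in the same cells, and the members' sum was followed across quintiles of each tag. From the lowest to the highest quintile of CD48, a marker gained as HSCs become progenitors, the sum was 5130, 5363, 5951, 6291 and 6987 CPM in the chelator pool. In the control pool it was 4941, 5265, 6039, 6421 and 7014. It went the opposite way with CD150, the receptor that marks HSCs, with 6441 CPM in the lowest and 5108 in the highest quintile of the chelator pool and 6543 and 5142 in the control pool. The slope with CD135 was shallower, from 5616 to 6453 CPM across the chelator quintiles and from 5527 to 6295 across the control ones. The share of cells with a score above 0 moved along, from 17.3% to 84.7% over the CD48 quintiles of the chelator pool and from 15.6% to 82.0% in the control pool.

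CD71, the transferrin receptor that takes up iron, and CD98, an amino-acid transporter chain, are not used by the gates. Across CD71 quintiles the sum ran from 5319 to 6932 CPM in the chelator pool and from 5395 to 7126 in the control pool. Within the HSC gate alone it was 5033 in the lowest and 6136 in the highest CD71 quintile of the chelator pool, and 4921 and 5958 in the control pool. Of the 6 tags split this way, CD98 gave the widest range in the same gate, with 4615 to 6546 CPM in the chelator and 4351 to 6249 in the control pool. Shares of cells with a score above 0 again ran alongside, at 9.64% and 58.7% in the lowest and highest CD98 quintile of the chelator HSC gate and at 6.07% and 55.8% in the control one. The part of the score in these slopes was not tested.

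**Figure D4:**
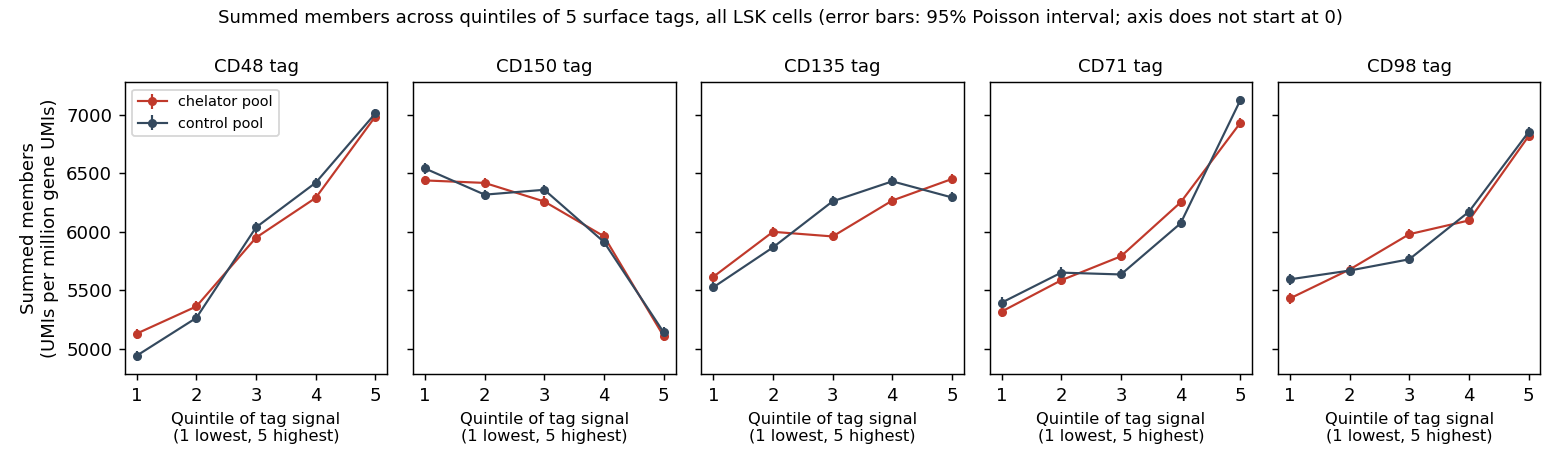
Summed level of the 40 members (CPM, vertical axis not starting at 0) in quintiles of the CD48, CD150, CD135, CD71 and CD98 tags over all LSK cells, in the chelator pool (red) and the control pool (dark blue), with 95% Poisson intervals. The sum climbs with CD48 from 5130 to 6987 CPM in the chelator pool and from 4941 to 7014 in the control pool, and is lowest in the top quintile of CD150.

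In cells with more UMIs, these genes made up a larger share of them. By quintile of total gene UMIs, the sum was 4454, 4919, 5503, 6368 and 6998 CPM in the chelator pool and 4398, 4789, 5465, 6420 and 7065 in the control pool. In the HSC gate the range was 4175 to 6399 and 4142 to 6285 CPM, wider than that over CD98. The lowest quintiles of the HSC gate, with medians of 8358 and 8137 UMIs per cell, had scores above 0 in 6.73% and 8.63% of cells, and the top quintiles, with 23584 and 22769 UMIs, in 74.8% and 78.9%. Depth and the score cannot be told apart by these values.

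After thinning every cell to 5000 UMIs, the median cell had 27 member UMIs in each pool. By gate the medians were 29 in the chelator and 28.5 in the control pool for MPP4, 30 and 33 for MPP3, 32 and 31 for MPP2, and 25 in each for MPP1, against 24 and 23 for the HSC gate. The middle 80% of LSK cells spanned 16 to 43 UMIs in the chelator pool and 15 to 43 in the control pool, so the distributions of all gates overlapped widely. The variance of these counts was 4.23 and 4.33 times their mean over LSK cells. It was 2.56 and 2.55 times the mean among HSC-gate cells without a score above 0, whereas counting alone would give a variance near the mean.

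For the treatments themselves, the sum over all LSK cells was 6072 CPM in the chelator pool and 6084 in the control pool, a log2 ratio of -0.0028 with an interval of -0.0091 to 0.0036. Of the 40 members 0 were past 1.2-fold higher (2.37% of all genes) and 0 past 1.2-fold lower (2.21%), and 16 were above 0 (48.4% of all genes). Bysl, a factor of the small subunit, was at 16.0 CPM in the chelator and 17.8 in the control pool, the lowest ratio (-0.15, interval -0.28 to -0.031). Rrp9 followed with 29.3 and 32.0 CPM (-0.13) and Rrp12 with 13.8 and 14.9 (-0.11). The highest were Nop14 with 55.1 and 52.7 CPM (0.064), Rrp1b with 55.0 and 52.8 (0.058) and Ppan with 91.4 and 88.2 (0.052). All 6 of these are processing factors, and the intervals of the 3 highest ones and of Rrp12 included 0. Npm1 was at 1608 and 1601 CPM and Ncl at 665 and 661, equal within counting error. Summed by role, the polymerase I genes (-0.056, interval -0.11 to -0.0044) and the small-subunit factors (-0.031, -0.057 to -0.0051) lay below 0. So did Srm and Ipo4 together (-0.050, -0.084 to -0.017). The intervals of the other roles included 0.

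By gate, the sum was higher in the HSC gate of the chelator pool than in that of the control pool, at 5392 and 5246 CPM (0.040, interval 0.027 to 0.053). In the MPP3 gate it was lower, at 6653 and 6798 CPM (-0.031, -0.046 to -0.016). The MPP4 gate had 6425 and 6391 CPM (0.0075), MPP2 6694 and 6801 (-0.023) and MPP1 5735 in each pool, with intervals that included 0. In the HSC gate 31 of 40 members were above 0, where 47.8% of all genes were; in MPP3 it was 11 of 40, where 52.4% of all genes were. None was past 1.2-fold in either gate, the background being 2.57% higher and 3.41% lower in the HSC gate and 4.71% and 4.26% in MPP3. Past 1.2-fold lower in MPP1 was 1 of 40 members, Rrp9 (-0.32, interval -0.61 to -0.042), as were 353 of 8461 genes. Among the 30 members with enough UMIs in MPP2 it was 1, Rrp1b (-0.30, -0.65 to 0.052), and 319 of 3868 genes. In cells of 10000 to 15000 gene UMIs the HSC gate ratio was 0.070. The differences of the sums in the HSC and MPP3 gates, a few percent of the level, are larger than counting error. Counting error leaves out the spread between cells. In thinned cells the variance was 3.28 and 3.42 times the mean in the HSC gate and 5.02 and 4.33 times in MPP3, so intervals with that spread would be wider. Without replicate pools their relation to the treatment was not tested.

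**Figure D5:**
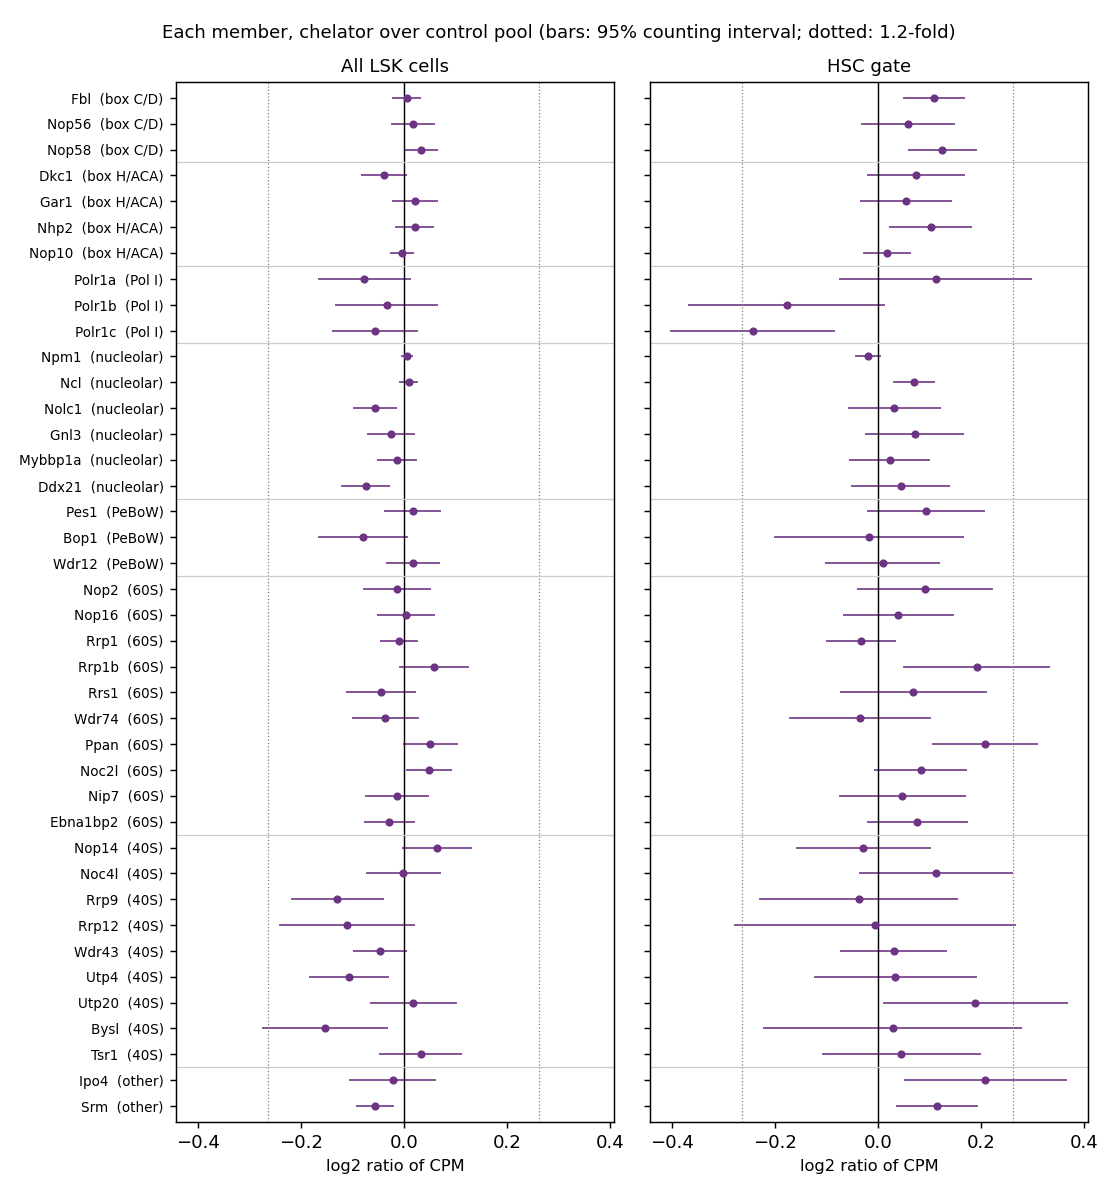
Log2 ratio of CPM, chelator over control, for each member in all LSK cells (left) and in the HSC gate (right); bars are 95% counting intervals and dotted lines mark 1.2-fold. In LSK cells the points run from -0.15 (Bysl) to 0.064 (Nop14), and in the HSC gate from -0.24 (Polr1c) to 0.21 (Ipo4), all within 1.2-fold.

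In the HSC gate the box C/D genes Fbl, at 260 CPM in the chelator and 241 in the control pool (0.11), and Nop58, at 213 and 195 (0.13), had intervals above 0, and Nop56 was at 112 and 107 (0.058). All 4 box H/ACA genes were above 0 too, with Nhp2 at 146 and 136 CPM (0.10). Ncl was at 563 and 536 CPM (0.071, interval 0.030 to 0.11), whereas Npm1 was at 1378 and 1396 (-0.018, -0.044 to 0.0072). The highest ratios were those of Ipo4 with 39.6 and 34.3 CPM (0.21), Ppan with 94.3 and 81.7 (0.21) and Rrp1b with 48.7 and 42.6 (0.19). Polymerase I genes stood at the other end, Polr1c with 32.9 and 38.9 CPM (-0.24, interval -0.40 to -0.082) and Polr1b with 23.7 and 26.8 (-0.18, -0.37 to 0.015). The interval of Polr1b included 0, and Polr1a went the other way, at 27.5 and 25.4 CPM (0.11).

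Within the sexes the comparison over LSK cells split, with 6419 CPM in chelator and 6512 in control cells with Xist (-0.021), and 6008 and 5916 in cells with Y-linked transcripts (0.022). In the HSC gate both kinds of cells agreed in direction, with 5780 and 5559 CPM in Xist cells (0.056, interval 0.033 to 0.080) and 5330 and 5162 in Y cells (0.046, 0.029 to 0.064). In MPP3 the ratio was -0.0014 (-0.027 to 0.024) in Xist cells, at 6882 CPM in the chelator and 6889 in the control pool, and -0.061 (-0.081 to -0.040) in Y cells, at 6579 and 6861 CPM, so that the lower level of the chelator MPP3 gate was seen in Y cells and was within counting error in Xist cells. In MPP4 they were opposed, at 6755 and 6914 CPM in Xist cells (-0.034) and 6349 and 6020 in Y cells (0.077). MPP1 was opposed the other way round, with 6252 and 5807 CPM in Xist cells (0.11) and 5535 and 6015 in Y cells (-0.12). The value near 0 over all LSK cells is therefore a mixture of values of either sign.

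The score classes also gave values of opposite sign. In LSK cells with a score above 0 the sum was 6767 CPM in the chelator and 6901 in the control pool (-0.028, interval -0.036 to -0.021), and 5 of 40 members were above 0, where 47.7% of all genes were. In cells without, it was 4786 and 4739 CPM (0.014, 0.0019 to 0.026), with 21 of 40 above 0 and 52.7% of all genes. The HSC gate was above 0 in both classes, with 6511 and 6353 CPM among cells with a score above 0 (0.036) and 4743 and 4612 among those without (0.040). In MPP1 the cells with a score above 0 were at 6444 and 6835 CPM (-0.085), and in MPP3 at 6991 and 7309 (-0.064). MPP3 cells without a score above 0 went the other way, at 4527 and 4244 CPM (0.093), where the median over all genes was 0.10.

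A wider list of ribosome biogenesis genes outside the 40, with 115 in the matrices, had smaller ratios. In MPP4 over the HSC gate 80 of the 115 were above 0 in the chelator pool and 96 in the control pool, where 50% and 51% of all genes were. Their medians were 0.14 and 0.17, against 0.20 and 0.30 for the members. Npm3, a relative of Npm1, was at 189 and 192 CPM in MPP4, against 122 and 119 in the HSC gate (0.63 and 0.69). Sbds and Imp3 were lower in MPP4, Sbds at 57.3 and 57.7 CPM against 73.6 and 75.3, and Imp3 at 125 and 127 against 155 and 157. Between chelator and control LSK cells the wider list had a median of -0.0045, with 52 of 115 above 0, where 48.4% of all genes were. Past 1.2-fold higher and lower were 0 and 0 of them, against 2.37% and 2.21% of all genes. In the HSC gate the summed wider list was at 0.035 (interval 0.023 to 0.047), with 83 of 115 above 0 (47.8% of all genes). In MPP3 it was at 0.011 (-0.0031 to 0.026), with 63 of 115 above 0 (52.4%). The wider list thus did not share the lower level of the members in the chelator MPP3 gate.

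Myc, the activator named above, was at 463 and 409 CPM in MPP4, against 275 and 234 in the HSC gate (0.75 and 0.81). Between the treatments it was at 388 CPM in chelator and 345 in control LSK cells (0.17, interval 0.14 to 0.19), and at 275 and 234 in the HSC gate (0.23, 0.17 to 0.29), while the members' sum differed by -0.0028 and 0.040. Its relative Mycn was lower in MPP4, with 26.8 and 27.9 CPM in MPP4, against 209 and 218 in the HSC gate (-2.97 in each pool). Max, their shared partner, was at 77.6 and 83.3 CPM in MPP4, against 79.8 and 80.7.

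The members with the E-box shown above did not have larger median ratios than the members whose window lacks it. In MPP4 over the HSC gate the 8 had medians of 0.12 in the chelator and 0.21 in the control pool, against 0.18 and 0.29 for the 26 members whose window lacks these letters. The 6 members without a window, whose letters are not known here, had medians of 0.33 and 0.40. A part of the E-box in these ratios was not tested. For cells with a score above 0 over those without, the medians were 0.30 and 0.34, against 0.42 and 0.52. Among the 8 were Ipo4 and Tsr1, which did not follow the rest of the members, as well as Utp20, which had the highest control ratio in MPP4. Between chelator and control LSK cells the medians were -0.013 for the 8 and -0.0066 for the 26.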

How the data were processed

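The authors deposited 1 matrix of raw UMI counts per treatment, with 32285 genes, 126 surface tags and 2 hashtags. The submitters' processing notes name mm10, Seurat 4.3.0 and Cell Ranger 7.0.0, and the matrix header names version 7.0.1. Which annotation, barcode filter and hashtag rule they used is not stated in the sources used here. Each matrix names its pool, and its own hashtag was the stronger in 4037 of 4037 chelator and 4025 of 4026 control barcodes.

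Barcodes were kept from 500 genes upward and below 10% mitochondrial UMIs. Doublets were not removed. In an alternative the 52 and 35 cells with at least 2 UMIs of Xist and at least 2 of Y-linked genes were left out. Gate thresholds came from mixtures of 2 components fitted to each tag's centred log ratios in both pools together (scikit-learn 1.9.0). Cycle scores, on cells thinned to 5000 UMIs, are mean log expression less that of control genes, 50 for each gene, drawn from 25 bins of expression. UMIs were summed over cells, divided by all gene UMIs (CPM) and compared as ratios with exact conditional binomial 95% intervals; sums carry exact Poisson intervals (scipy 1.17.1). These cover counting error only. Their coverage was checked on simulated Poisson counts, the model that the intervals assume, so spread between cells was not checked. With 1 pool per treatment, "past 1.2-fold" is a size and not a test; shares of all genes are over those with at least 200 UMIs in the 2 groups compared. The rule allowed naming Npm1, Ncl, Myc, the 3 highest and 3 lowest members of a comparison, and the same of the wider list. Those members are all given for MPP4 over the HSC gate and for the treatments over LSK cells. For other comparisons they are given only in part. Of the wider list only Npm3, Sbds and Imp3 are given, extremes of both pools in MPP4 over the HSC gate. Other members were named to describe their role, after their values were seen. The 40 members, the gene lists and the comparisons were chosen with earlier results of these data known. Of 18 alternatives tried, 2 were added after seeing the data. Promoter windows came from RefSeq (GRCm38.p6), and 6 members were without one.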

Additional observations from a re-analysis of the deposited data

Results flagged for a closer look

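Between the treatments, the summed members pointed in opposite directions in the sexes over all LSK cells and in the MPP4 and MPP1 gates. The log2 ratio of chelator over control was -0.021 in LSK cells with Xist and 0.022 in those with Y-linked transcripts. In the MPP4 gate it was -0.034 in Xist cells and 0.077 in Y cells, and in the MPP1 gate 0.11 in Xist cells and -0.12 in Y cells. The HSC gate was above 0 in Xist and Y cells (0.056 and 0.046). MPP3 was at -0.0014 and -0.061, and in MPP2 the intervals of both included 0. Over all cells of a gate, the ratio of the summed members was -0.031 in the MPP3 gate and 0.040 in the HSC gate. The wider list of ribosome biogenesis genes was at 0.011 in MPP3 (interval -0.0031 to 0.026) and at 0.035 in the HSC gate. None of these differences was tested, since each pool is a single sample, and the number of female and male mice behind the cells is not given in the sources used here.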

How the results depend on the processing

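No paired analysis was possible because each treatment had 1 pool and no replicate. Of 286 values of called ratios under the alternatives, 282 kept their sign, and so did 124 of 128 sums of a gate over the HSC gate. The 4 that reversed were all among cells without an S or G2M score above 0: MPP3 over the HSC gate at -0.067 in the chelator and -0.12 in the control pool, and MPP2 over the HSC gate at -0.023 and -0.051, the MPP2 values resting on 9 and 14 cells. Cells with a score above 0 were not among these alternatives; in them MPP1 over the HSC gate was -0.015 in the chelator pool (interval -0.037 to 0.0065), against 0.089 over all cells. The summed ratio of chelator over control in LSK cells, -0.0028 as reported, was 0.0056 with cells weighted equally, 0.0077 thinned to 5000 UMIs, -0.021 in Xist cells, 0.022 in Y cells, 0.014 in cells without a score above 0 and -0.010 in cells of 10000 to 15000 UMIs. For MPP4 over the HSC gate in the chelator pool (0.25) the values were 0.21 scaled without ribosomal protein and mitochondrial genes, 0.19 without Npm1 and Ncl, 0.22 in Xist cells, 0.24 with sexes weighted equally, 0.055 without a score above 0, 0.28 away from tag thresholds and 0.11 in the depth band of 10000 to 15000 UMIs. In the control pool (0.29) they were 0.24, 0.26, 0.31, 0.27, 0.12, 0.32 and 0.26 in the same order, besides 0.27 with cells weighted equally, 0.27 thinned and 0.22 in Y cells. The count of 16 members past 1.2-fold in the chelator pool became 3 without a score above 0, 8 in the depth band and 0 at 1.5-fold, and the control count of 24 became 11 without a score above 0, 15 in Y cells and 0 at 1.5-fold. Without a score above 0 the shares of all genes were 23.9% and 25.2%. For the depth band, Y cells and 1.5-fold no share of all genes is given here. Those counts therefore cannot be read as a result about the members. The causes were not tested. The depth band and the removal of haemoglobin-rich cells were added after seeing the data. Depth limits the low-count members: in single gates many intervals reach both sides of 0.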
